A study of Mus musculus with 6 samples.

Results

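The blood vessels of the hypothalamus were followed through 33 genes that mark their wall, 22 of them genes of brain endothelial cells and 11 genes of mural cells, the pericytes and smooth muscle cells around the endothelium. The genes were taken by name, and all 33 were found among the 21507 genes that the deposited expression table measured with 1 gene symbol a row. Total hypothalamic RNA of male mice was hybridized to Affymetrix arrays, 3 labeled ΔLepR and 3 labeled Slugfl/fl. The ΔLepR mice carried floxed *Slug* alleles (gene symbol *Snai2*, a transcriptional repressor of the Snail family) together with Cre at the leptin receptor locus, and the Slugfl/fl mice carried the floxed alleles without Cre. The labels name the Cre line as leptin receptor-CreERT2 and give an age of 8 weeks for all mice, which were fed chow. The study's methods describe instead a Cre knockin at the end of the LepRb transcript, bred to homozygosity on a C57BL/6 background, and a later age. Cre in this line is restricted to cells that express the leptin receptor, whereas the RNA came from the whole hypothalamus, and animals carrying Cre without floxed *Slug* were not analysed here.

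Brain endothelial cells form the blood-brain barrier. Tight and adherens junctions seal the space between them, transporters in their membranes carry glucose, amino acids and lipids into the brain, and efflux pumps return drugs to the blood. Pericytes share their basement membrane and maintain the barrier, while smooth muscle cells with a contractile actin apparatus wrap arteries and arterioles and set their diameter. In the hypothalamus most capillaries have this barrier, but the vessels of the median eminence, where neurohormones enter the portal blood, are fenestrated and lack much of it.

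The targeted gene went against the labels. *Snai2* (chromosome 16) read 10.36, 9.68 and 10.49 on the log2 scale in arrays labeled ΔLepR, against 3.79, 4.23 and 4.23 in arrays labeled Slugfl/fl. This was a difference of 6.09 (SE 0.21), or 68.2-fold higher in the arrays labeled knockout, with an adjusted P of 1.6e-06 (limma with Benjamini-Hochberg adjustment over all genes). Whether the row probes the floxed part of the gene was not tested, nor was a swap of the labels, which would turn each direction below. Directions follow the labels as given. *Lepr* (chromosome 4), the locus that holds the Cre, read 4.55, 4.16 and 4.42 in arrays labeled ΔLepR, against 4.04, 3.72 and 3.96 in arrays labeled Slugfl/fl. Its groups did not overlap, and it passed the study's threshold, described below, as 1.38-fold higher (log2 difference 0.47, SE 0.13), with an adjusted P of 0.74. Array medians lay between 4.04 and 4.07 and correlations between arrays between 0.991 and 0.993.

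One of the 33 vascular genes passed the study's threshold, which asks for a difference of more than 25.0% in either direction at an unadjusted P under 0.05. It was *Mfsd2a*, which was higher in arrays labeled ΔLepR. Over all genes 2.01% passed this threshold, 1.44% as higher and 0.577% as lower, so 1 call among 33 genes is near the background. The limits of the threshold are not symmetric on the log2 scale, and the shares of higher and lower calls rest on which group is divided by which. With the ratio taken as Slugfl/fl over ΔLepR, *Mfsd2a* has a ratio of 0.766 and is not called, and over all genes 134 would be called with ΔLepR higher and 268 with ΔLepR lower, in place of 309 and 124. Groups that did not overlap, a measure without such limits, were split nearly evenly, with ΔLepR higher for 5.91% of all genes and lower for 5.56%. No vascular gene passed at an adjusted P under 0.05 (lowest 0.74), where 0.0139% of all genes did. An unadjusted P under 0.05 was reached by 2 of the 33, *Mfsd2a* and *Slc7a5*, against 5.85% of all genes. The estimates were positive for 18 genes and negative for 15, with a median log2 difference of 0.02 beside 0.00 over all genes. In bulk RNA, fewer vessel cells and less RNA per vessel cell cannot be told apart.

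The intervals set how large an undetected difference in array signal could be. With 3 arrays a group, the 95% confidence interval of the difference lay within 1.5-fold in either direction for 27 of the 33 genes and within 2-fold for all 33. For array signal, a fold of 2 in either direction was therefore outside the interval of each vascular gene. Smaller differences that lie inside these intervals may have gone undetected. Of the 33 rows, 20 were above the median of all genes. Those of *Cldn5*, *Esam*, *Kdr*, *Tie1*, *Sox17*, *Sox18*, *Erg*, *Ly6c1*, *Vwf*, *Higd1b*, *Anpep*, *Tagln* and *Cnn1* were below it. How the signal of these rows follows the amount of RNA was not tested. An exact permutation test of 3 against 3 arrays cannot give a 2-sided P below 0.10 for any single gene.

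**Figure D1:**
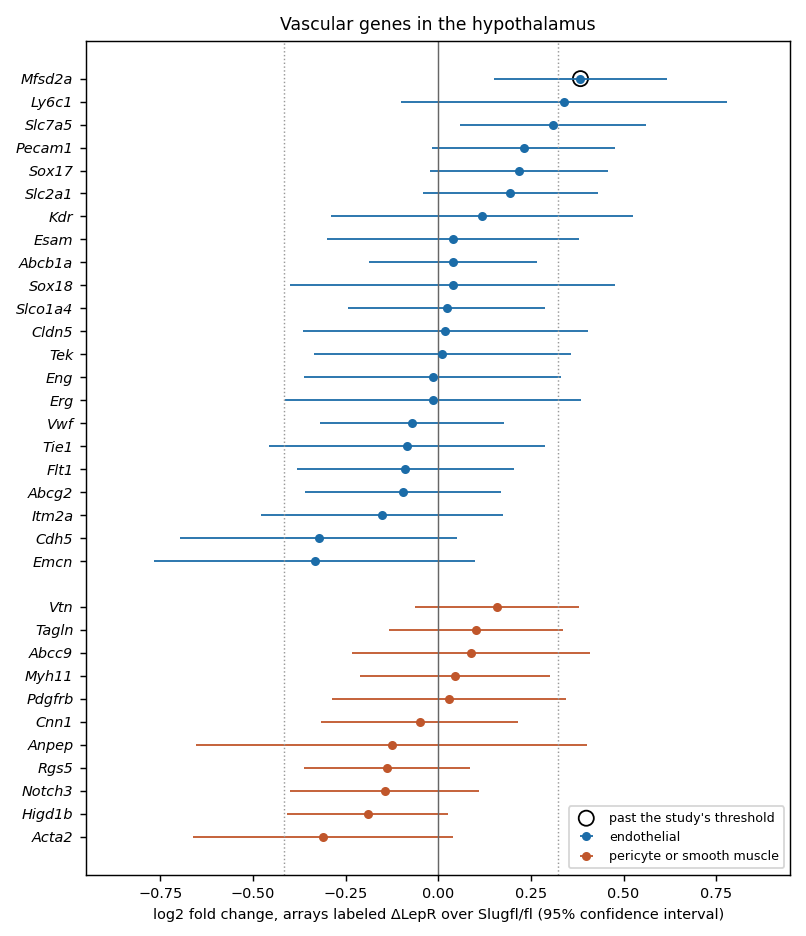
Log2 difference, ΔLepR minus Slugfl/fl, for each of the 33 genes (points) with its 95% confidence interval (lines) from the limma fit, endothelial genes (blue) above mural genes (orange) and each ordered by difference, with dotted lines at the fold limits of the study's threshold. The interval of *Mfsd2a* (0.15 to 0.62) and that of *Slc7a5* (0.06 to 0.56) lie above 0, and the other 31 cross it.

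*Mfsd2a* on chromosome 4 encodes the transporter that carries lysophospholipids with docosahexaenoic acid across the brain endothelium and that restrains transcytosis there. Its log2 values were 7.14, 7.39 and 7.36 in arrays labeled ΔLepR and 6.93, 6.97 and 6.84 in arrays labeled Slugfl/fl. All ΔLepR arrays were above all Slugfl/fl arrays, and the gap between the nearest arrays of the groups was smaller than the spread of the ΔLepR arrays. The means were 7.30 ± 0.14 in ΔLepR and 6.91 ± 0.07 in Slugfl/fl (SD, n = 3 each), a difference of 0.38 (SE 0.10, 95% CI 0.15 to 0.62), or 30.5% higher (limma adjusted P = 0.74, exact permutation P = 0.10, the smallest possible). The difference stayed between 0.34 and 0.46 when each array was left out in turn, and *Mfsd2a* passed the study's threshold in each of these fits.

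Snail family repressors bind E2 boxes, the hexamer CACCTG or, read on the other strand, CAGGTG. The 300 bases around the annotated start (250 before and 50 after it, RefSeq on GRCm38.p6) were read for 22 of the 33 genes, which gave 27 windows because some genes have several starts. An E2 box on either strand was present in 4 of the 27 windows (14.8%), against 20.2% of all 32851 promoter windows. These 4 windows belonged to *Mfsd2a*, *Erg*, *Itm2a* and *Vtn*. The stretch around the box in each is printed here, 5′ to 3′ on the strand of the gene with the box in capitals, 250 bases for *Mfsd2a* and 40 for the others, because *Mfsd2a* was the called gene and the others show the same hexamer beside genes that did not pass. The *Mfsd2a* stretch is chr4:122961189-122961438 on the minus strand, and its box begins 172 bases before the start.
Mfsd2a: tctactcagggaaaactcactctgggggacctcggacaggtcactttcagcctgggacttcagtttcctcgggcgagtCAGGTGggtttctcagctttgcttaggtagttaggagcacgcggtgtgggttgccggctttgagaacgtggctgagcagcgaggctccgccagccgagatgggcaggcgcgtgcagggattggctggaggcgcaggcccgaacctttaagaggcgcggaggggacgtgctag
Erg: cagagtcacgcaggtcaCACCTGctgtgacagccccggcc
Itm2a: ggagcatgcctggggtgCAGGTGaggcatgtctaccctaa
Vtn: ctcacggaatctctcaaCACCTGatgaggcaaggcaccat
The *Erg* stretch is chr16:95459543-95459582 on the minus strand with its box 217 bases before 1 of 3 annotated starts. That of *Itm2a* is chrX:107403524-107403563 on the minus strand (box 186 bases before the start), and that of *Vtn* is chr11:78498935-78498974 on the plus strand (168 bases before). The letters are a description of the reference sequence only. *Erg*, *Itm2a* and *Vtn* had log2 differences of -0.02, -0.15 and 0.16, none past the threshold. The ETS core GGAA, read on either strand, was in 24 of the 27 windows (88.9%), against 96.0% of all windows, and the CArG box, which serum response factor binds, was in 0 of 27, against 1.63%.

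The barrier transporters and pumps, 6 genes, included the 1 called gene and had a median difference of 0.12. Of the 6, 5 had positive estimates, beside 10902 of 21507 over all genes. In 3 (*Mfsd2a*, *Slc7a5* and *Slc2a1*) the groups did not overlap, all with ΔLepR higher, beside 5.91% of all genes. The 29 other barrier junction and transporter genes read below did not share this lean. Their groups did not overlap in 2 genes with ΔLepR higher and in 2 with ΔLepR lower, and their median was 0.04. *Slc7a5*, the large neutral amino acid transporter that also carries L-DOPA and thyroid hormone, read 6.87, 7.14 and 7.16 in arrays labeled ΔLepR, against 6.70, 6.69 and 6.86 in arrays labeled Slugfl/fl. The lowest ΔLepR array was barely above the highest Slugfl/fl array. The difference was 0.31 (SE 0.11, 1.24-fold, adjusted P = 0.84), which missed the fold limit. It passed that limit without ΔLepR array 1 (0.40) or without Slugfl/fl array 3 (0.36).

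*Slc2a1* encodes GLUT1, the glucose carrier of barrier endothelium, which astrocytes also make. Its values were 8.91, 9.16 and 8.86 in arrays labeled ΔLepR and 8.77, 8.79 and 8.79 in arrays labeled Slugfl/fl. The 3 Slugfl/fl arrays were nearly equal (SD 0.01), and the ΔLepR arrays lay above them with a wider spread (SD 0.16). The difference was 0.19 (SE 0.11, 95% CI -0.04 to 0.43, adjusted P = 0.86), and it was 0.10 without ΔLepR array 2, the highest of the 6. The other transporters had estimates near 0: *Slco1a4*, an organic anion carrier, at 0.02, *Abcb1a*, the P-glycoprotein drug pump, at 0.04, and *Abcg2*, the breast cancer resistance protein pump, at -0.10.

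**Figure D2:**
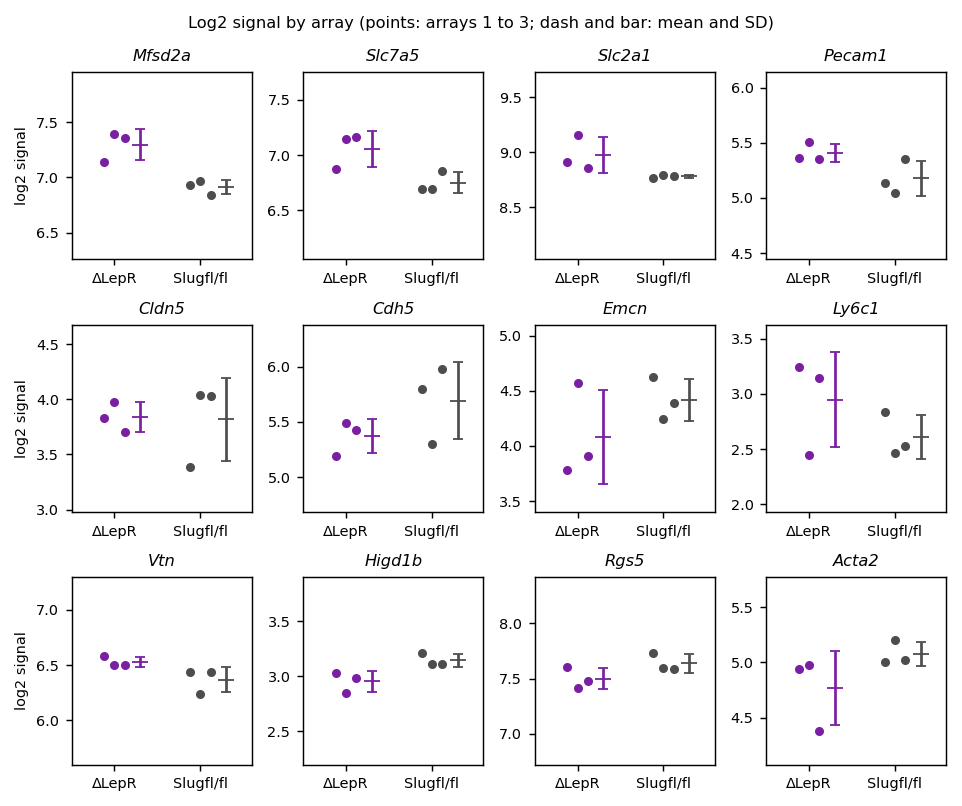
Log2 signal of each array (points) with the group mean and SD (dash and bar, n = 3) for 12 of the 33 genes, with ΔLepR left of Slugfl/fl in each panel. The 3 ΔLepR arrays lie above the 3 Slugfl/fl arrays for *Mfsd2a*, *Slc7a5*, *Slc2a1*, *Vtn* and, by less than the plot can show, *Pecam1*, and below them for *Acta2* and *Higd1b*.

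None of the 4 junction and adhesion genes passed. *Cldn5*, the main claudin of brain tight junctions, read 3.83, 3.97 and 3.70 in arrays labeled ΔLepR, against 3.38, 4.04 and 4.03 in arrays labeled Slugfl/fl. Its ΔLepR arrays lay inside the range of the Slugfl/fl arrays, and the difference was 0.02 (SE 0.17, 95% CI -0.36 to 0.40). The row was below the median of all genes, 4.18, and its estimate ran from -0.20 to 0.13 when single arrays were left out. *Cdh5*, the VE-cadherin of adherens junctions, read 5.19, 5.49 and 5.43 in arrays labeled ΔLepR and 5.80, 5.30 and 5.98 in arrays labeled Slugfl/fl. Slugfl/fl array 2 fell among the ΔLepR arrays and the other Slugfl/fl arrays lay above them, for a difference of -0.32 (SE 0.17, adjusted P = 0.86). Without that array *Cdh5* passed the study's threshold as lower (-0.52), whereas without Slugfl/fl array 3 the estimate was -0.18. *Pecam1*, an adhesion protein shared with platelets and leukocytes, was 0.23 higher (SE 0.11, adjusted P = 0.84), with groups that touched at 5.35 in ΔLepR and 5.35 in Slugfl/fl. *Esam*, another adhesion protein of tight junctions, had an estimate of 0.04.

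The 5 growth factor receptors had the narrowest set of endothelial estimates, -0.09 to 0.12, and none was called. They are *Flt1* (-0.09) and *Kdr* (0.12), the VEGF receptors, *Tek* (0.01) and *Tie1* (-0.08), the angiopoietin receptor and its partner, and *Eng* (-0.01), a TGF-β co-receptor. The groups overlapped in all 5. Each of these estimates changed sign when some single array was left out.

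Endothelial transcription factors were not called either. *Sox17* and *Sox18*, SoxF factors of endothelial identity, had estimates of 0.22 (SE 0.11, adjusted P = 0.84) and 0.04, and *Erg*, the ETS factor, -0.02. All 3 rows were below the median of all genes. Among the 4 surface or secreted markers, *Ly6c1*, a membrane antigen of barrier endothelium in mice, read 3.24, 2.45 and 3.15 in arrays labeled ΔLepR, against 2.84, 2.47 and 2.52 in arrays labeled Slugfl/fl. ΔLepR array 2 was the lowest of all 6 and the other ΔLepR arrays were the highest, and the difference was 0.34 (SE 0.20, adjusted P = 0.86). *Emcn*, endomucin, which marks veins and capillaries, showed the opposite picture. It read 3.78, 4.57 and 3.90 in arrays labeled ΔLepR and 4.62, 4.24 and 4.38 in arrays labeled Slugfl/fl, with ΔLepR array 2 among the Slugfl/fl arrays and the other ΔLepR arrays below them. Its difference was -0.33 (SE 0.19, adjusted P = 0.86). Without ΔLepR array 2 both passed the study's threshold, *Ly6c1* at 0.59 and *Emcn* at -0.58, whereas without ΔLepR array 1 the estimates were 0.19 for *Ly6c1* and -0.18 for *Emcn*. *Itm2a*, a membrane protein, was at -0.15 and *Vwf*, the platelet-binding glycoprotein of larger vessels, at -0.07, both with overlapping groups.

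The mural genes had no call in either direction, and their lowest adjusted P was 0.85. Their differences ranged from -0.31 to 0.16 with a median of -0.05. In the 7 pericyte genes the median was -0.13. *Pdgfrb*, the receptor for the platelet-derived growth factor that recruits pericytes to vessels, read 5.25, 5.54 and 5.51 in arrays labeled ΔLepR and 5.27, 5.25 and 5.70 in arrays labeled Slugfl/fl. The groups overlapped, with a difference of 0.03 (SE 0.14, 95% CI -0.29 to 0.34). *Rgs5*, a regulator of G protein signaling that is abundant in brain pericytes, read 7.60, 7.41 and 7.48 in arrays labeled ΔLepR, against 7.74, 7.59 and 7.58 in arrays labeled Slugfl/fl. The highest ΔLepR array was just above the lowest Slugfl/fl arrays, and the difference was -0.14 (SE 0.10, 95% CI -0.36 to 0.09).

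*Vtn*, vitronectin, an adhesive protein that pericytes secrete, read 6.58, 6.50 and 6.50 in arrays labeled ΔLepR and 6.43, 6.23 and 6.43 in arrays labeled Slugfl/fl. *Higd1b*, a mitochondrial protein used as a pericyte marker, read 3.03, 2.85 and 2.98 in arrays labeled ΔLepR and 3.21, 3.11 and 3.11 in arrays labeled Slugfl/fl. These pericyte genes thus separated the groups in opposite directions, *Vtn* with ΔLepR higher by 0.16 (SE 0.10) and *Higd1b* with ΔLepR lower, at -0.19 (SE 0.10), and neither passed a threshold. The *Higd1b* row was below the median of all genes, and the *Vtn* row was above it. *Abcc9*, the sulfonylurea receptor subunit of vascular potassium channels, was at 0.09 and *Notch3*, the Notch receptor of mural cells, at -0.14. *Anpep*, aminopeptidase N, was at -0.13 with the widest error of the 33 genes (SE 0.24).

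Of the 4 contractile smooth muscle genes, *Acta2*, smooth muscle α-actin, had the largest difference. It read 4.94, 4.98 and 4.38 in arrays labeled ΔLepR, against 5.0, 5.20 and 5.03 in arrays labeled Slugfl/fl. All ΔLepR arrays were below all Slugfl/fl arrays, 2 of them narrowly and ΔLepR array 3 by a wide margin. The difference was -0.31 (SE 0.16, 95% CI -0.66 to 0.04, adjusted P = 0.85, exact permutation P = 0.10). Without ΔLepR array 2, *Acta2* passed the study's threshold at -0.42, whereas without ΔLepR array 3 the estimate was -0.12. The genes of the same contractile apparatus were near 0, with *Tagln* (transgelin) at 0.10, *Myh11* (smooth muscle myosin heavy chain) at 0.05 and *Cnn1* (calponin) at -0.05, and groups that overlapped in all 3. The *Tagln* and *Cnn1* rows were below the median of all genes, and the *Myh11* row was above it.

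Set side by side, the endothelial genes had 1 call higher and 0 lower among 22, with a median difference of 0.02, and the mural genes 0 and 0 among 11, with a median of -0.05. Groups that did not overlap were found in 7 of the 33 genes, against 11.5% of all genes. They were *Mfsd2a*, *Slc7a5*, *Slc2a1*, *Pecam1* and *Vtn* with ΔLepR higher and *Acta2* and *Higd1b* with ΔLepR lower. The endothelial rows were the noisier ones, with a median within-group SD of 0.23 against 0.14 for the mural rows and 0.14 over all genes.

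Many endothelial genes deviated in the same direction within single arrays. In Slugfl/fl array 2, 19 of the 22 were below their own mean over the 6 arrays (median deviation -0.16), while 49.4% of all genes in that array were above theirs. *Cldn5*, *Vwf* and *Abcg2* were the 3 above. In ΔLepR array 2, 16 of the 22 were above their own mean (median deviation 0.12), against 50.3% of all genes. The 11 mural genes were more evenly divided in Slugfl/fl array 2, where 5 were above their own mean, and 9 of 11 were above it in Slugfl/fl array 3. Of the further lists described below, some shared this pattern and others did not. In Slugfl/fl array 2, 3 of 21 other smooth muscle genes (median deviation -0.099), 4 of 13 basement membrane genes and 7 of 20 other pericyte genes were above their own mean. The counts were 13 of 29 for other barrier genes, 12 of 24 for Wnt pathway and transcription factor genes and 18 of 34 for vessel growth genes, and 8 of 12 genes of fenestrated and leaky vessels were above it (median deviation 0.14). In Slugfl/fl array 3, 18 of the 21 smooth muscle, 15 of the 20 pericyte and 10 of the 13 basement membrane genes were above their own mean, but 14 of the 34 vessel growth genes and 4 of the 12 genes listed for fenestrated and leaky vessels. The groups' medians moved with these arrays: the endothelial median was -0.06 without Slugfl/fl array 2 and 0.10 without Slugfl/fl array 3, and the mural median was 0.08 without Slugfl/fl array 3 and 0.06 without ΔLepR array 3.

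**Figure D3:**
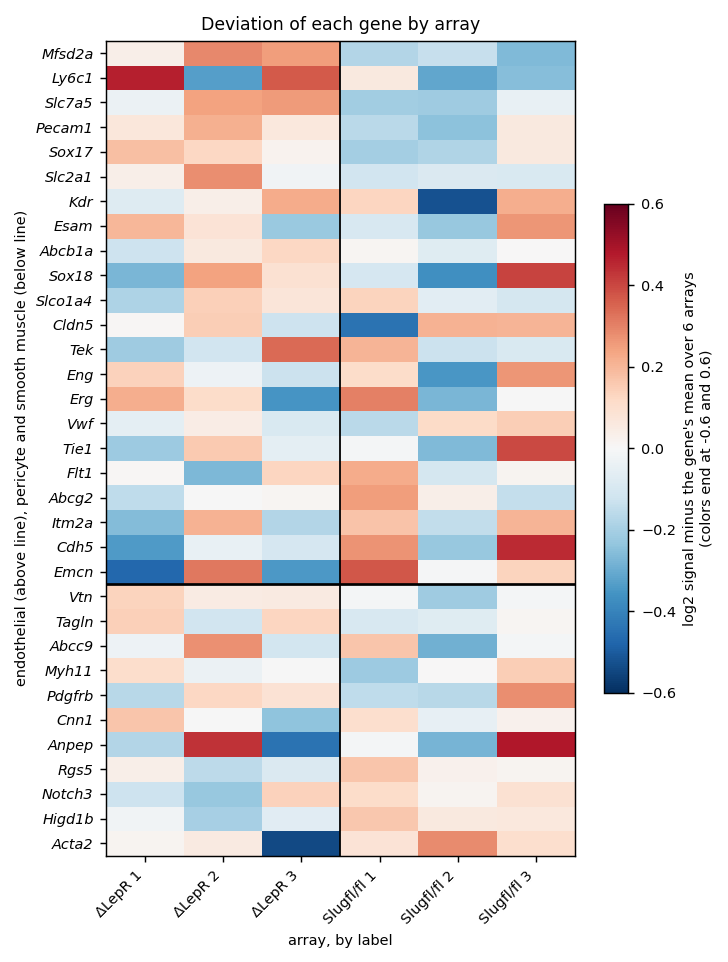
Deviation of each array from the gene's own mean over the 6 arrays (log2, color scale) for the 33 genes, with ΔLepR arrays left of Slugfl/fl arrays. The column of Slugfl/fl array 2 is below 0 for 19 of the 22 endothelial genes, and that of Slugfl/fl array 3 is above 0 for 9 of the 11 mural genes.

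Further vascular genes were read from 7 lists with 152 measured genes, and gave 4 calls higher and 2 lower, where 1.44% of all genes were called higher and 0.577% lower. The median was -0.01, beside 0.00 over all genes. None passed at an adjusted P under 0.05. *Selp*, P-selectin, which captures leukocytes on venules, read 2.38, 2.39 and 2.43 in arrays labeled ΔLepR, against 2.83, 3.26 and 3.04 in arrays labeled Slugfl/fl. The ΔLepR arrays were nearly equal and all below the Slugfl/fl arrays, by -0.64 (SE 0.12, a ratio of 0.640, adjusted P = 0.40), though the row was dim, below the median of all genes. *Ackr1*, the chemokine-binding Duffy receptor of venular endothelium, moved the other way, with 5.79, 5.69 and 5.92 in arrays labeled ΔLepR and 5.41, 5.54 and 5.23 in arrays labeled Slugfl/fl. Its groups did not overlap, and it was 0.40 higher (SE 0.11, 1.32-fold, adjusted P = 0.74). These were the 2 calls among the 12 genes listed for fenestrated and leaky vessels, whose median was 0.00. That list also holds genes of venules, these 2 among them, so it does not read fenestrated vessels alone. In it *Gpihbp1*, the capillary anchor of lipoprotein lipase, was at -0.28 without passing.

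*Cspg4*, the NG2 proteoglycan, was the call among 20 other pericyte genes. It read 5.20, 5.10 and 5.04 in arrays labeled ΔLepR, against 4.76, 4.47 and 4.66 in arrays labeled Slugfl/fl. Its groups were clearly apart, with a difference of 0.48 (SE 0.11, 39.5% higher, adjusted P = 0.55). NG2 is also a defining protein of oligodendrocyte precursors, and *Pdgfra*, which marks those precursors and fibroblasts, was at 0.18 (SE 0.09) without passing, with all 3 ΔLepR arrays above all Slugfl/fl arrays. The part of these precursors in the *Cspg4* difference was not tested. Other pericyte genes with the smallest P values, *Cd248* (endosialin, -0.25) and *Tbx18* (a mural transcription factor, -0.19), had the opposite sign and did not pass. Of the 20 genes 15 had negative estimates, beside 10605 of 21507 over all genes, and the median was -0.05. Among 21 other smooth muscle genes, *Actg2*, smooth muscle γ-actin, was lower, with 2.54, 2.21 and 2.25 in arrays labeled ΔLepR against 2.69, 2.90 and 2.74 in arrays labeled Slugfl/fl (-0.44, SE 0.12, a ratio of 0.737, adjusted P = 0.74). Its groups did not overlap, but the row was dim, below the median of all genes. The call was lost without ΔLepR array 2 (-0.38), ΔLepR array 3 (-0.40) or Slugfl/fl array 2 (-0.38). *Cald1*, caldesmon, was at -0.25 and *Map3k7cl* at 0.28, neither past the threshold, and the list's median was -0.06.

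In the 29 other barrier junction and transporter genes, *F11r*, junctional adhesion molecule A, was higher at 0.35 (SE 0.15, 1.27-fold, adjusted P = 0.84), and *Slc22a8* (an organic anion transporter, -0.24) and *Slc16a4* (a monocarboxylate transporter family member, -0.23) did not pass. The *F11r* row was dim, and its call was lost without ΔLepR array 2 (0.27), ΔLepR array 3 (0.34) or Slugfl/fl array 3 (0.19). In the 24 genes of the barrier Wnt pathway and of endothelial transcription factors, *Tal1*, a factor of the endothelial and blood lineages, was higher at 0.34 (SE 0.15, 1.27-fold, adjusted P = 0.84), a call that among the 6 fits leaving out 1 array was kept only without Slugfl/fl array 3 (0.50), with 0.19 as the smallest estimate, without Slugfl/fl array 2. The *Tal1* row was also dim. *Sox7*, the third SoxF factor, was at 0.29 (SE 0.11) and *Foxq1*, a forkhead factor of barrier endothelium, at -0.21, neither past the threshold. The 34 ligands and receptors of vessel growth had 0 calls in limma and 0 with an unadjusted P under 0.05, with *Heyl* (a Notch target, 0.32), *Ramp2* (an adrenomedullin receptor subunit, 0.30) and *Vegfa* (-0.19) nearest. The 13 basement membrane genes also had 0 calls and 0 with an unadjusted P under 0.05, with *Lama4* (-0.21), *Fn1* (-0.21) and *Lamc1* (0.16) nearest. *Selp*, *Ackr1* and *Cspg4* passed in each fit that left out 1 array, with estimates of -0.75 to -0.53, 0.32 to 0.48 and 0.40 to 0.55.

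**Figure D4:**
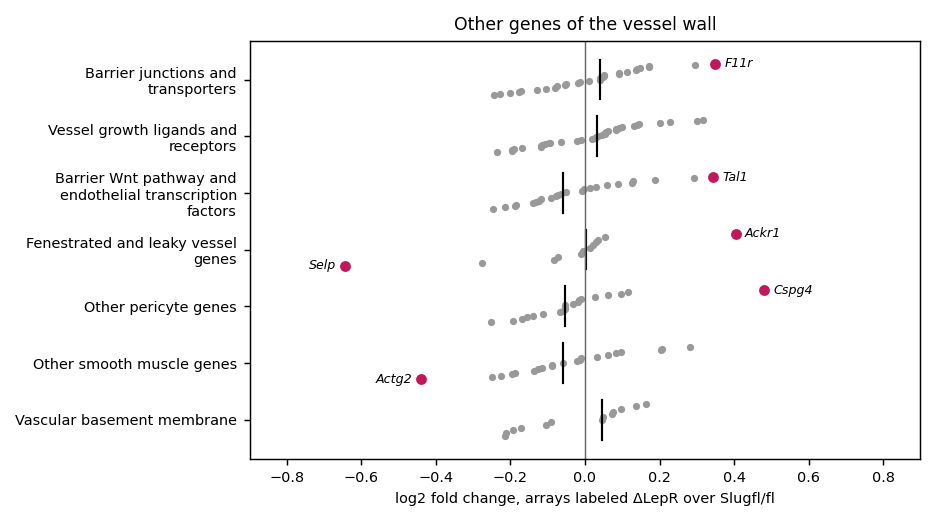
Log2 fold change, ΔLepR over Slugfl/fl, of each measured gene in the 7 further lists (points, spread vertically within a list by rank for legibility), with the median of each list (black line). The 6 genes past the study's threshold are colored and named, with *Selp* and *Actg2* left of 0 and *F11r*, *Tal1*, *Ackr1* and *Cspg4* right of it, while the medians lie between -0.06 and 0.05.

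Other cells of the tissue were read from their own marker lists, as the sum of the linear signal over the measured markers of each list in each array. Microglial markers (7 of 8 measured, 0 called) summed to 295 to 312 in arrays labeled ΔLepR, against 316 to 327 in arrays labeled Slugfl/fl, without overlap. Such a sum is weighted to the brightest rows, and the markers themselves were divided, with 3 positive and 4 negative estimates, a median of -0.02 and values from -0.20 (*Cx3cr1*) to 0.23 (*Gpr34*). Perivascular macrophage markers (7 of 7, 0 called) spanned 64.8 to 74.3 in ΔLepR and 65.7 to 72.4 in Slugfl/fl, and fibroblast and meningeal markers (11 of 11, 0 called) 358 to 407 in ΔLepR and 341 to 400 in Slugfl/fl. In the fibroblast list *Ogn* was at -0.33 and *Col1a1* at 0.23, both with an unadjusted P under 0.05 but differences too small for the threshold. Astrocyte markers (7 of 8) spanned 1325 to 1380 in ΔLepR and 1372 to 1518 in Slugfl/fl. Of them *Gjb6*, connexin 30, was called higher (0.35, SE 0.15, limma adjusted P = 0.84), though its groups overlapped. *Sox9* was at -0.26, with an unadjusted P under 0.05 and all ΔLepR arrays below all Slugfl/fl arrays, but within the limits of the threshold. Sums overlapped between the groups in each of these astrocyte, macrophage and fibroblast lists. Choroid plexus markers (8 of 8, 0 called) spanned 133 to 171 in ΔLepR and 130 to 160 in Slugfl/fl, and oligodendrocyte markers (7 of 8, 0 called) 1718 to 2026 in ΔLepR and 1743 to 2047 in Slugfl/fl. In the oligodendrocyte list *Ugt8a*, an enzyme of myelin galactolipid synthesis, was at -0.31 (SE 0.11), with an unadjusted P under 0.05 and groups that did not overlap, but within the limits of the threshold. Neuronal markers (8 of 8, 0 called) spanned 6818 to 7150 in ΔLepR and 7119 to 7425 in Slugfl/fl, overlapping only at the edge, and pituitary markers (8 of 8, 0 called) 68.6 to 111 in ΔLepR and 71.4 to 80.3 in Slugfl/fl. The pituitary list includes *Pomc*, which neurons of the hypothalamus also express, so its sum does not read the pituitary alone. The highest pituitary sum was that of ΔLepR array 1, which stood apart for *Prl*, prolactin, with 5.16, 2.63 and 3.01 in arrays labeled ΔLepR against 2.96, 2.80 and 2.60 in arrays labeled Slugfl/fl. Without that array the differences of *Mfsd2a* and *Slc7a5* were 0.46 and 0.40. Of the red blood cell markers only *Slc4a1* was measured here (-0.19). The lowest value in the table was 0.90, and whether each marker was above background was not tested. Rows above the median of all genes were 0 of 7 for macrophages, 0 of 8 for the pituitary and 3 of 8 for the choroid plexus. They were 5 of 7 for microglia, 7 of 11 for fibroblasts, 7 of 7 for astrocytes and oligodendrocytes, and 8 of 8 for neurons. The *Slc4a1* row was below that median. The part of these cells in the differences of *Mfsd2a*, *Slc7a5* or *Slc2a1* was not tested.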

How the data were processed

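Hypothalamic RNA of male mice was hybridized to Affymetrix whole-transcript arrays (3 labeled ΔLepR, 3 labeled Slugfl/fl). The values deposited by the authors lie between 0.90 and 12.43 and were taken as log2 expression values. MAS5 is the tool listed in the submitters' processing notes. How the arrays were summarized and normalized was not given in the sources used here. Of 24663 rows, 21925 carried 1 gene symbol, 818 several and 1920 none in the platform annotation. Rows with 1 symbol were kept, the brightest per gene by its mean over all arrays, which left 21507 genes. Levels of single genes were not set against each other, and a row was called dim where its mean was below the median of all genes. ΔLepR minus Slugfl/fl was fitted with limma 3.58.1 (lmFit and eBayes, 2-sided, no covariate) in R 4.3.3 on all genes, with Benjamini-Hochberg adjustment over all of them, and tested on simulated data. A gene was called at the study's threshold, a difference of more than 25.0% in either direction together with an unadjusted P under 0.05. The labels do not tie arrays to single mice, and P values therefore reflect only how these 6 samples vary, which may be technical. Precision is limited by having 3 arrays a group.

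All members could be named. Array values are given for members with an unadjusted P under 0.05, for the 3 endothelial and 3 mural members with the largest absolute difference, and for *Cldn5*, *Cdh5*, *Slc2a1*, *Pdgfrb*, *Rgs5* and *Acta2*. Further lists and other cell types are represented by called genes and by up to 3 genes with the smallest P. Members and lists were chosen with earlier results of these data known, so no list was tested as a set. The differences of the members and of *Snai2*, the counts of calls among endothelial, mural and further vascular genes, and the endothelial and mural medians were recomputed without each array in turn, with a replicate block, with the methods' t-test, with a trended and robust variance prior, after centering each array on its median or quantile-normalizing the arrays, for bright genes only, and with all rows of a gene averaged. Sequences are from RefSeq (GRCm38.p6), with 22 of the 33 genes matched.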

Additional observations from a re-analysis of the deposited data

How the results depend on the processing

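*Mfsd2a* passed the study's threshold in each fit, leaving out 1 array included, but not with the ratio taken as Slugfl/fl over ΔLepR, an alternative chosen after seeing the data. The endothelial count was then 0 and the further vascular count 3 (*Selp*, *Cspg4* and *Actg2*). With the replicate block, the endothelial count was 2 in place of 1 (*Ly6c1* added, 0.34), and over all genes 348 were called higher and 138 lower, against 309 and 124 without it. Arrays that share a number did not deviate together over all genes (correlation of deviations -0.003, -0.010 and -0.058 for numbers 1 to 3). Arrays with different numbers gave correlations from -0.052 to 0.059. Correlations this small do not show whether the numbers stand for a pairing of the samples. Leaving out 1 array moved the endothelial count between 1 and 3, the mural count between 0 and 1, the further vascular count between 3 and 9, and the mural median between -0.088 and 0.082. With dim genes left out, 135 genes were higher and 56 lower of 10753 tested, and the mural median was 0.029. The further count was then 2 (*Ackr1* and *Cspg4*), because *F11r*, *Tal1*, *Selp* and *Actg2* were themselves dim and not tested. The methods' t-test called 156 genes higher and 62 lower, 0 after adjustment, and lost *F11r* and *Tal1*.

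Members whose sign changed when an array was left out ran from -0.064 to 0.18 (*Esam*), -0.24 to 0.095 (*Tie1*), -0.20 to 0.13 (*Cldn5*), -0.18 to 0.023 (*Flt1*), -0.044 to 0.12 (*Slco1a4*), -0.14 to 0.25 (*Sox18*), -0.048 to 0.18 (*Pdgfrb*), -0.033 to 0.19 (*Abcc9*), -0.16 to 0.12 (*Tek*), -0.19 to 0.11 (*Eng*), -0.013 to 0.11 (*Abcb1a*), -0.16 to 0.16 (*Erg*), -0.37 to 0.082 (*Anpep*), -0.15 to 0.057 (*Cnn1*), -0.19 to 0.0048 (*Abcg2*), -0.052 to 0.13 (*Myh11*) and -0.11 to 0.26 (*Kdr*). The cause was not tested. Across members and alternatives, 374 values kept their direction and side of the threshold, 35 changed sign and 7 newly passed.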
